A study of Homo sapiens with 4 samples.

Results

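Genes of the MHC class I pathway were followed in accessible chromatin of SKBR3 cells, an established breast cancer cell line with HER2 amplification, with and without the cytokine TWEAK. The 9 genes were the heavy chains HLA-B, HLA-C, HLA-E and HLA-F, the light chain B2M, the peptide transporter subunit TAP1, the immunoproteasome subunits PSMB8 and PSMB9, and the transactivator NLRC5. Peaks of all 4 libraries that overlapped by at least 1 bp were merged into sites, and a site belonged to these genes when it lay within 50 kb of any GENCODE v44 start site of a member. This gave 153 sites of 301427 on chromosomes 1 to 22, each counted once. TAP1, PSMB8 and PSMB9 lie side by side and had 23 sites between them, 22 of which belonged to each of these genes, and the HLA-B and HLA-C windows overlapped and held 14 sites together. The other sites were 28 for HLA-E, 15 for HLA-F, 19 for B2M and 54 for NLRC5, whose annotated start sites run along a long gene.

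MHC class I molecules present peptides from inside the cell to CD8+ T cells. The proteasome cuts the peptides, with PSMB8 and PSMB9 replacing constitutive catalytic subunits in the immunoproteasome, TAP1 with its partner TAP2 carries them into the endoplasmic reticulum, and a heavy chain bound to B2M displays them at the surface. The class I promoters are known for an NF-κB element, an interferon-stimulated response element and a module with a CRE-like and a CCAAT-type box through which NLRC5 acts, and TWEAK signals through its receptor Fn14 to NF-κB.

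ATAC-seq, in which the Tn5 transposase cuts open chromatin, was done on 2 untreated libraries and on 2 libraries from cells that received TWEAK at 10 ng/ml for 48 h, with fresh cytokine after 24 h. All cells had been starved for 8 h. The line carries its own alterations, and 1 line stands for each condition, so values describe SKBR3. The cell type could not be checked from markers, since the lists hold chromatin and no transcript levels, and accessibility at a gene is not its expression. The lists held between 195388 and 228734 peaks of 501 bp. Each peak carries 1 deposited value, taken to be −log10 p, from which a pileup (the whole-number read coverage at the peak) was recovered against 1 background per list of 1.85 to 3.59. Depth in reads was unknown, and the lowest pileup that made a peak was 7 to 10. The rank percentile of a peak is the rank of its value in its own list, with 100 the strongest. Between replicates, the median absolute log2 difference of shared sites was 0.20 in the untreated and 0.20 in the TWEAK pair.

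Reference promoters of 5 genes, shown for the known class I elements, and of PSMB8, shown for the peaks at its start, are given first, as the 250 bases before the start site, 5′ to 3′ along the gene, from RefSeq with GRCh38.p14 positions. They are not SKBR3 alleles. Capitals mark matches to the NF-κB motif, TTTCNNTT (ISRE-like), TTCNNNGAA (GAS), TGANTCA (AP-1), TGACG (CRE half-site) or CCAAT, on either strand. The motifs were chosen with the values known, and they may overlap one another.
HLA-B (chr6:31357180-31357429, minus strand): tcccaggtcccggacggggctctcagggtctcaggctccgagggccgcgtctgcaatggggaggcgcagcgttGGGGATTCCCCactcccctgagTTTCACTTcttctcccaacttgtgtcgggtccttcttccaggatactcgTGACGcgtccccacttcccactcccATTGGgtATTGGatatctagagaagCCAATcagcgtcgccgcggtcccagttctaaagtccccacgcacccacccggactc
HLA-C (chr6:31272093-31272342, minus strand): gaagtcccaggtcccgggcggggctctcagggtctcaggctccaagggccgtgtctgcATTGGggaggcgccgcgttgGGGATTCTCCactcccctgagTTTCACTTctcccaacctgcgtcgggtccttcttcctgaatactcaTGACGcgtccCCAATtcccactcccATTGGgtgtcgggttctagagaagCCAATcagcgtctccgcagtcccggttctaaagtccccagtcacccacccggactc
HLA-F (chr6:29723184-29723433, plus strand): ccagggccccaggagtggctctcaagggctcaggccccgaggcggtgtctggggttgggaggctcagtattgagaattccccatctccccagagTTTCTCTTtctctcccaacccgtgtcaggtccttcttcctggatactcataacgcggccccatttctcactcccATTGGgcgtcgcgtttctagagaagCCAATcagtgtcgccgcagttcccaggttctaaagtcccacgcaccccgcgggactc
B2M (chr15:44711267-44711516, plus strand): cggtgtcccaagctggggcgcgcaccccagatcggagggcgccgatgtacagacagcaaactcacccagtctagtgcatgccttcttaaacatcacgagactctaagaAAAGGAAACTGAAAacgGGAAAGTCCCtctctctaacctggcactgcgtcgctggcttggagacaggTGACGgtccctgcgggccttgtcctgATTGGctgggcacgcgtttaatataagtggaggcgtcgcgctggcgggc
TAP1 (chr6:32853705-32853954, minus strand): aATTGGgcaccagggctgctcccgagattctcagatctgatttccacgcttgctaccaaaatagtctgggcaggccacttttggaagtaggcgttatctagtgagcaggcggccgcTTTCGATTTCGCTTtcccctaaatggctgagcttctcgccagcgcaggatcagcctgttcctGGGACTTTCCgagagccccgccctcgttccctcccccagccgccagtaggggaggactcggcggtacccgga
PSMB8 (chr6:32844048-32844297, minus strand): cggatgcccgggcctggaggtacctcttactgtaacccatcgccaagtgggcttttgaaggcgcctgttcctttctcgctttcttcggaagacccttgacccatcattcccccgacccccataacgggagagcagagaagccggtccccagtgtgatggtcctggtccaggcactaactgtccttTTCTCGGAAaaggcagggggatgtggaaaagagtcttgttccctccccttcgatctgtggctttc

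HLA-B and HLA-C both held an NF-κB match followed by TTTCACTT, TGACG and, nearest to the start, CCAAT, and HLA-C held a further ATTGG ahead of its NF-κB match. In HLA-B the ISRE-like match began 155 bases before the start and in HLA-C 151 bases before it. HLA-F held an ISRE-like match and CCAAT boxes, and these letters for NF-κB were not found in its window. B2M had an NF-κB match beginning 125 bases before the start and the reverse complement of the ISRE-like letters just upstream, and TAP1 had NF-κB at 72 bases and ISRE-like letters at 134 and 128 bases. PSMB8 held a GAS match that began 65 bases before the start and none of the other letters. Of 35116 promoters of this length, 9.96% held the NF-κB motif, 20.3% TTTCNNTT, 6.57% TTCNNNGAA, 6.57% TGANTCA, 21.2% TGACG and 32.0% CCAAT. A match is a description of the letters and no sign of a bound factor.

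5 sites away from promoters are shown as 201 bases around the centre of their best-ranked peak, on the plus strand of hg38. They were chosen among those with a rise or a new peak in both TWEAK libraries and such letters anywhere in these bases. NF-κB, ISRE-like, GAS and AP-1 matches are in capitals, and some lie near the ends.
HLA-E downstream site (chr6:30496561-30496761): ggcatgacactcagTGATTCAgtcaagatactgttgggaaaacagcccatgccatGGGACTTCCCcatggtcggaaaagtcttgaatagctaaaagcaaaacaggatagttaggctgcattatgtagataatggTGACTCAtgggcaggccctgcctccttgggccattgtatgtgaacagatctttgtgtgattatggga
HLA-E far downstream site (chr6:30528009-30528209): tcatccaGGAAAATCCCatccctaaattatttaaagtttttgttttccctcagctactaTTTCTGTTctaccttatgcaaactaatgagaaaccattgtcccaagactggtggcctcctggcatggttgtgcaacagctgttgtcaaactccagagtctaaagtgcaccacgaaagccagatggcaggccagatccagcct
PSMB9 downstream site (chr6:32861297-32861497): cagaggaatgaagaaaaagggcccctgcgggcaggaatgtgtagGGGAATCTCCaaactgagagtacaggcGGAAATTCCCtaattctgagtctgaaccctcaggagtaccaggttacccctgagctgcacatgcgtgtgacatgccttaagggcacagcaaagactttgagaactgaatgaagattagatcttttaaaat
NLRC5 upstream site (chr16:56984736-56984936): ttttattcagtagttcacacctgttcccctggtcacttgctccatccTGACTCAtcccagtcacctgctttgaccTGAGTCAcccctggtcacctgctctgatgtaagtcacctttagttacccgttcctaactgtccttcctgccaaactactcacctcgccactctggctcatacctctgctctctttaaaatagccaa
NLRC5 intronic site (chr16:56999481-56999681): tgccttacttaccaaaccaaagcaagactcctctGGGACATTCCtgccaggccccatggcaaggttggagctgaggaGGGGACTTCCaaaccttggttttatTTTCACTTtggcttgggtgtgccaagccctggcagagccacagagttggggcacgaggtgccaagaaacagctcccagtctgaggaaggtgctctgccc

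Presence of a peak was compared first. Of the 153 sites, 75 (49.0%) had a peak in all 4 libraries, against 42.7% of all sites, and 33 (21.6%) in 1 library, against 29.2%. Sites were counted as gained where both TWEAK lists, but no untreated list, held a peak, and 7 of the 153 (4.58%) were gained, against 3.58% of all sites. The opposite pattern, a lost site, was found at 3 (1.96%), against 3.8% of all sites. The gained share depended on the distance: it was 6 of 88 (6.82%) within 25 kb and 7 of 260 (2.69%) within 100 kb, above and below that of all sites. These counts are a description, with no test. The plot of presence gives all patterns.

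**Figure D1:**
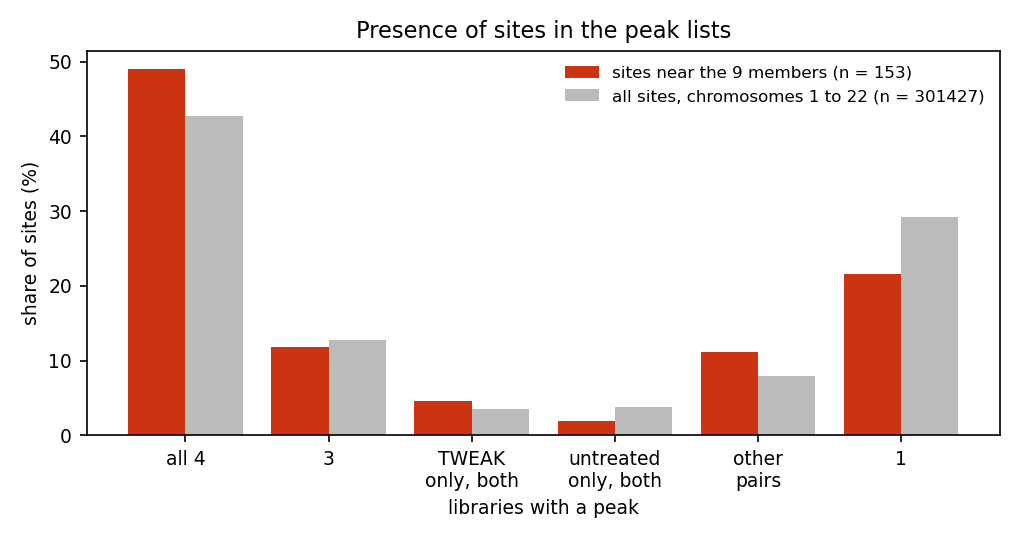
Share of sites (%) by the libraries in which they had a peak, for the 153 sites near the 9 genes (red) and all 301427 sites (grey). Sites in all 4 libraries made up 49.0% near the genes and 42.7% of all sites, and sites found only in both TWEAK libraries 4.58% and 3.58%.

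Strength was compared at the 75 sites with a peak in all 4 libraries. Both TWEAK ranks lay above both untreated ranks at 14 sites (18.7%), against 15.9% of all shared sites, and below them at 17 (22.7%), against 35.4%. In limma on quantile-normalised log2 pileup over all 128823 shared sites, 8 member sites were higher with TWEAK at an adjusted p under 0.05, or 10.7% against 5.97% of all shared sites, and 1 was lower, or 1.33% against 4.38%. These shares depended on the scale and the distance. Fitted on ranks, 3 of the 75 (4.0%) were called higher, against 3.56% of all shared sites. Within 100 kb, 6.11% of the 131 shared sites were called higher, 3.82% were called lower and 32.1% had both TWEAK ranks below both untreated ranks, all near the background. Within 25 kb the shares moved the other way: 6 of 41 (14.6%) were called higher, 0 lower, and 24.4% had both TWEAK ranks above both untreated ranks. At an unadjusted p under 0.05 there were 15 of the 75 (20.0%), against 23.2% of all shared sites. The median log2 change was 0.04 near the genes and −0.03 over all shared sites, and its sign was not stable (−0.01 with median centring and within 100 kb, 0.13 within 25 kb). When any 1 of the 4 libraries was left out, with 1 residual degree of freedom remaining, no site in the genome was called, and 8.75% to 17.5% of the member sites then had an unadjusted p under 0.05, against 12.5% to 14.7% of all sites fitted. The log2 change then stayed between 1.06 and 1.54 for the first called HLA-E site described below and between 1.10 and 1.28 for the second. It ranged more widely at others, from 0.60 to 1.24 at the site 29785 bp downstream of PSMB9 and from −1.36 to −0.72 at the ZFP57 promoter. The direction of sites whose groups do not overlap cannot turn in such fits. With 2 libraries a group, an exact permutation test cannot go below p = 0.333, so no single-site test of that kind was made. The higher calls lay at HLA-E, the TAP1-PSMB8-PSMB9 block, B2M and NLRC5. None lay nearest to HLA-F, with 8 shared sites, or to HLA-B or HLA-C, with 8 shared sites together. So few sites allow no contrast with the 5.97% of all shared sites.

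**Figure D2:**
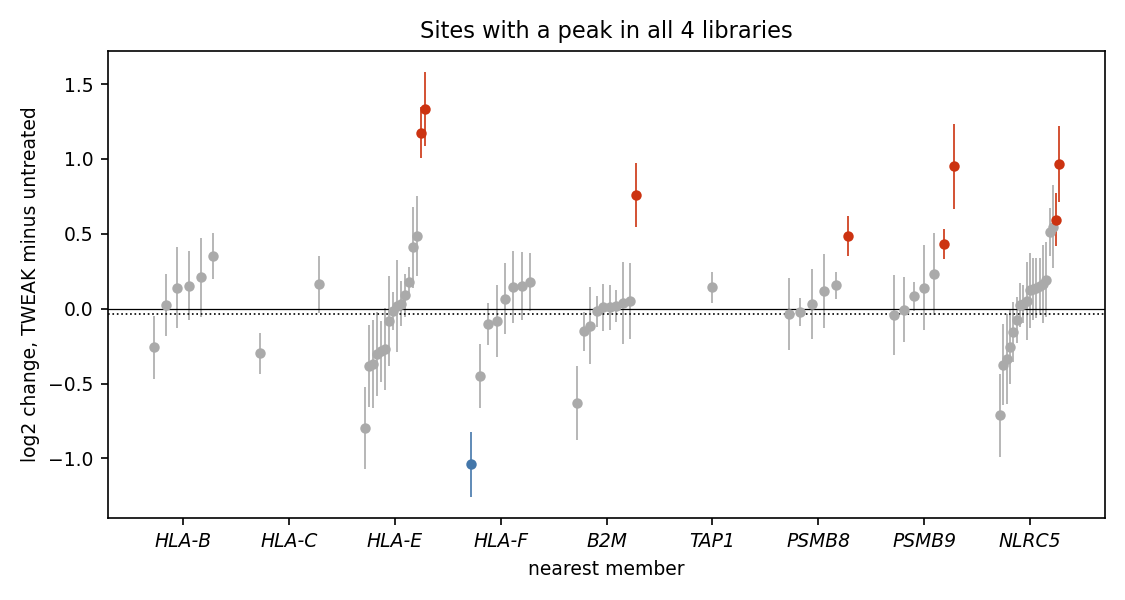
Log2 change in normalised pileup (TWEAK minus untreated) of the 75 sites with a peak in all 4 libraries, by the nearest of the 9 genes. Points are sites, bars the standard error, red marks the 8 called higher, blue the 1 called lower, and the dotted line the median of all shared sites (−0.03).

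The classical heavy chains HLA-B and HLA-C, which present peptides to CD8+ T cells, had weak or incomplete peaks at their promoters. At HLA-B (ENSG00000234745.14) the site over the canonical start (chr6:31356897-31357508) had no peak in untreated 1 and ranks of 28.8 in untreated 2, 29.2 in TWEAK 1 and 17.9 in TWEAK 2. The ranks were low wherever a peak was present, and the treatment groups overlapped. At HLA-C (ENSG00000204525.18) the promoter site (chr6:31271914-31272421) had a rank of 74.9 in untreated 1 and 80.3 in TWEAK 1, and no peak in either replicate 2. Its pileup over background was 17.6 and 26.2 in those libraries. The nearest peak of untreated 2 was 3331 bp away and that of TWEAK 2 25470 bp away, so presence followed the replicate number and not the treatment. Of the 6809 sites in the genome found in both replicate 1 libraries only, 168 (2.47%) had both ranks above 70, a threshold chosen after the values were seen. Class I genes resemble each other, and the longest identical run between the HLA-B and HLA-C reference promoters was 25 bases. How reads with several matches were treated is not given in the sources used here. Its part in the peaks at these sites was not tested, and the sites remain uncertain.

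A stronger site lay 9884 bp upstream of the HLA-B start at a second annotated start (chr6:31366810-31367317). Its ranks were 85.7 and 84.1 untreated and 87.6 and 88.7 with TWEAK. Both TWEAK ranks were the higher, but the log2 change of 0.35 (SE 0.15) did not pass the test (limma, adjusted p = 0.169). A further HLA-B site, 319 bp inside the gene from the canonical start (chr6:31356360-31356860), had a peak in TWEAK 1 only (rank 16.4). Over the 14 sites of HLA-B and HLA-C, none was gained, lost or called, and 8 had a peak in all 4 libraries. Of all sites, 3.58% were gained and 3.8% lost, and 10.3% of all shared sites were called in either direction. These sites are too few to differ from such shares.

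HLA-E presents leader peptides of other class I chains to the NK cell receptor NKG2A, and its promoter was among the most accessible sites. The site over the start (chr6:30489193-30489702) ranked 98.0 and 97.9 untreated and 98.8 and 98.1 with TWEAK. The log2 change was 0.18 (SE 0.10, limma, adjusted p = 0.307), which did not pass the test. A second site 436 bp downstream of the start had ranks of 90.0 and 90.7 in the replicate 1 libraries alone. The nearest peaks of the replicate 2 libraries were 243 and 251 bp away and were the promoter peak itself.

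Away from its promoter, HLA-E had the 2 largest log2 rises among the 75 shared sites. The site centred 7189 bp downstream of the start (chr6:30496396-30497000) lay between genes and rose from ranks of 42.2 and 57.9 untreated to 74.5 and 74.9 with TWEAK. Its pileup was 22 in each untreated library and 53 and 46 with TWEAK, although TWEAK lists had the lower background within each replicate number. The log2 change was 1.33 (SE 0.25, limma, adjusted p = 0.00129). The sequence shown for it holds an NF-κB match and AP-1 matches on both sides. Further out, the site centred 38587 bp downstream (chr6:30527827-30528366) rose from 70.9 and 73.2 to 88.8 and 85.5. The log2 change was 1.17 (SE 0.17, limma, adjusted p = 0.000118), and the untreated and TWEAK ranks did not overlap. The nearest coding gene start there is that of GNL1, 19451 bp away, and the 201 bases shown hold an NF-κB match and an ISRE-like match. The same locus also held a fall: the site centred 28894 bp downstream (chr6:30518083-30518723) went from ranks of 45.8 and 51.0 to 21.4 and 12.3. Its log2 change of −0.80 (SE 0.28) did not pass the test (limma, adjusted p = 0.0733).

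HLA-F, a heavy chain that can reach the surface without peptide, had a promoter of middle rank. The site (chr6:29723066-29723593) ranked 63.3 and 74.8 untreated and 71.2 and 69.2 with TWEAK. The TWEAK values lay between the untreated ones, and the log2 change was 0.15 (SE 0.23, limma, adjusted p = 0.752). The 1 gained site, centred 41350 bp downstream (chr6:29764488-29765080), was weak, with ranks of 25.5 and 17.9. The single lower call was centred 43412 bp upstream at the promoter of ZFP57 (chr6:29679747-29680298), an imprinting-associated zinc finger gene. Its ranks fell from 82.0 and 84.4 to 72.7 and 56.0, by 1.04 on the log2 scale (SE 0.22, limma, adjusted p = 0.00338). It is nearer to ZFP57 (854 bp) than to HLA-F.

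**Figure D3:**
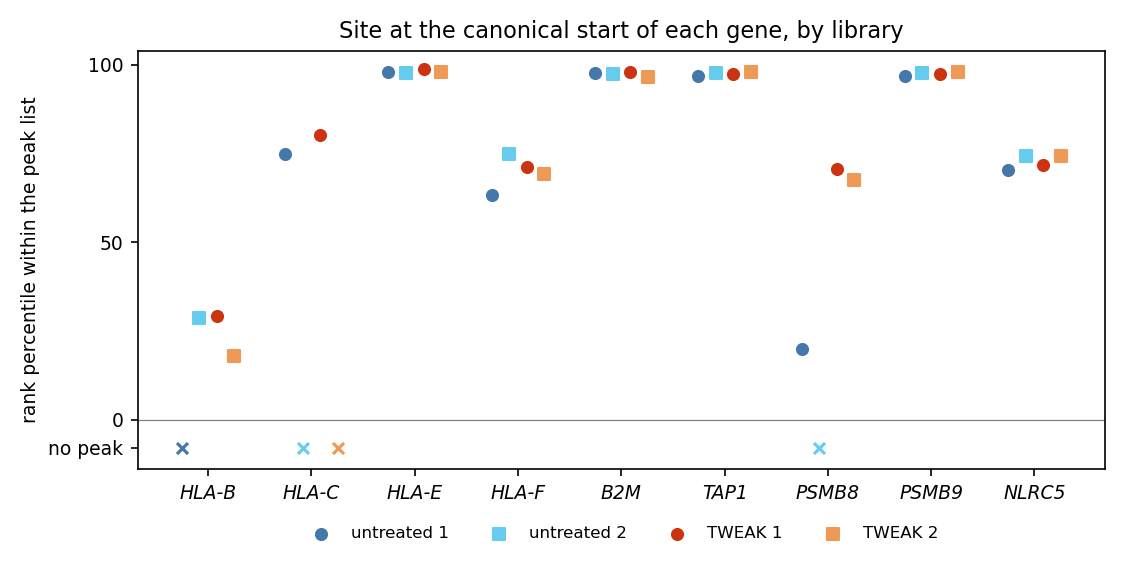
Rank percentile within its peak list of the merged site spanning the canonical start of each gene, in the 2 untreated (blue) and 2 TWEAK (red and orange) libraries. Crosses mark libraries with no peak. HLA-E, B2M, TAP1 and PSMB9 lie above 96 in all 4 libraries, HLA-C has peaks in the replicate 1 libraries only, and TAP1 and PSMB9 share 1 site.

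B2M, the light chain that every class I heavy chain needs, had a promoter site (chr15:44711199-44711725) with ranks of 97.6 and 97.5 untreated and 97.9 and 96.6 with TWEAK. The groups overlapped, and the log2 change was −0.02 (SE 0.11, limma, adjusted p = 0.947). A weaker site just inside the gene, with its near edge 893 bp from the start and its centre 1161 bp after it (chr15:44712410-44712946), rose with TWEAK. Its ranks were 60.2 and 67.7 untreated and 77.0 and 74.4 with TWEAK, with pileups of 36 and 31 against 59 and 45. The log2 change was 0.76 (SE 0.21, limma, adjusted p = 0.0252), which missed the threshold on ranks (adjusted p = 0.144), and the 201 bases around its centre held TTTCGGTT, an ISRE-like match. A gained site centred 16080 bp downstream (chr15:44727313-44727881) had ranks of 42.8 and 43.0. An untreated peak stood only 252 bp from it. Between the promoter and the called site, a further site (chr15:44711826-44712370) had peaks in untreated 2 (rank 68.5) and TWEAK 1 (rank 54.6), with the peaks of the other libraries 40 and 48 bp away. The lost site, at the SPG11 promoter and centred 48888 bp upstream of B2M (chr15:44662375-44662883), had untreated ranks of 33.1 and 16.0 and a TWEAK peak 106 bp away.

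TAP1 and PSMB9 are transcribed in opposite directions from a shared promoter, and 1 merged site spanned both starts (chr6:32853608-32854323). The peak of untreated 1 covered the TAP1 start and the peaks of the other 3 libraries the PSMB9 start, with 286 to 322 bp of overlap between them. It ranked 96.8 and 97.6 untreated and 97.6 and 97.9 with TWEAK. The log2 change was 0.14 (SE 0.10, limma, adjusted p = 0.454), so the shared promoter was highly accessible without a called change. Downstream of the TAP1 start, libraries placed their peaks differently: one site was found in untreated 2 and TWEAK 2 only (ranks 64.0 and 72.0) and the next in untreated 1 and TWEAK 1 only (ranks 53.0 and 57.0), with the peaks of the other libraries 63 to 114 bp away.

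PSMB8, which takes the place of a chymotrypsin-like subunit, differed between the groups at its canonical start in presence and rank. Both TWEAK libraries had a peak over the start, with ranks of 70.6 and 67.6 and pileups of 45 and 35. Neither untreated library had one over it. The merged site (chr6:32843449-32844361) held a peak of untreated 1 with a rank of 19.8 and a pileup of 14, which ended 98 bp short of the start. That untreated peak overlapped the TWEAK peaks by only 89 and 94 bp, while the TWEAK peaks overlapped each other by 496 bp. When 250 bp of overlap was required, the count of gained sites near the 9 genes was 8 in place of 7. The strong neighbouring site over the second annotated start (chr6:32844486-32844996) had ranks of 98.9, 99.2, 99.4 and 99.2 in untreated 1, untreated 2, TWEAK 1 and TWEAK 2. Its log2 change was 0.16 (SE 0.09, limma, adjusted p = 0.314), and its TWEAK peaks lay 134 and 129 bp from those at the canonical start. Its part in the difference was not tested. The 250 bases shown for PSMB8 lie inside the TWEAK peaks.

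Downstream of the start of PSMB9, which takes the place of the caspase-like subunit, 1 strong and 2 weaker sites differed. The site centred 7178 bp after the start (chr6:32861094-32861647) was already strong, with ranks of 97.0 and 96.6 untreated, and reached 98.6 and 98.3 with TWEAK. Pileup over background was 77.2 and 83.2 untreated and 114 and 118 with TWEAK, and the log2 change was 0.43 (SE 0.10, limma, adjusted p = 0.00803, and 0.0606 with median centring). The sequence shown for it holds 2 NF-κB matches. The site centred 29785 bp downstream (chr6:32883713-32884241) rose from ranks of 35.6 and 56.4 to 62.1 and 68.4, a log2 change of 0.95 (SE 0.28, limma, adjusted p = 0.0373, and 0.114 on ranks). The untreated libraries were far from each other, and the change was 0.60 without untreated 1. A gained site centred 1743 bp after the start, at another annotated start of PSMB9 (chr6:32855684-32856186), had ranks of 51.8 and 37.7, 1360 bp from the nearest untreated peak. On the other side of the block, the promoter of HLA-DOB, a class II accessory chain, rose from 88.8 and 87.7 to 93.1 and 91.8 (chr6:32819643-32820155). Its log2 change was 0.49 (SE 0.13, limma, adjusted p = 0.0232, against 0.0903 on ranks and 0.0519 with median centring). A lost site in an exon of the same gene (chr6:32812879-32813532) had untreated ranks of 10.3 and 3.28, close to the detection limit of the lists.

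**Figure D4:**
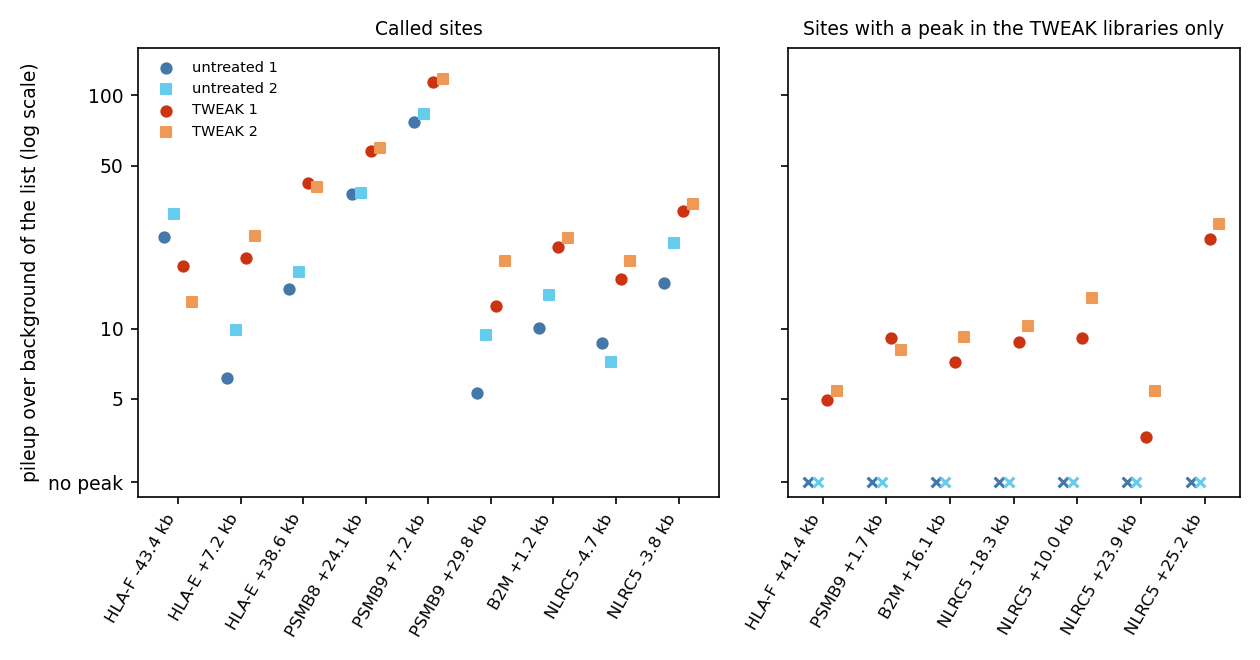
Pileup over the background of each list (log scale) for the 9 called sites (left) and the 7 sites with a peak in the TWEAK libraries only (right), named by the nearest of the 9 genes and the distance of the site centre from its canonical start. The 8 sites called higher have both TWEAK values above both untreated values, and the last gained site, in an NLRC5 intron, has the highest values of the 7.

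NLRC5, the transactivator of class I promoters, had 4 gained sites among its 54 (7.41%, against 3.58% of all sites) and 2 higher calls among its 19 shared sites (10.5%, against 5.97%). Its canonical promoter (chr16:56989291-56989812) ranked 70.4 and 74.3 untreated and 71.7 and 74.4 with TWEAK. The log2 change was 0.13 (SE 0.21, limma, adjusted p = 0.767), and the groups overlapped. A weak site 530 bp upstream of the start (chr16:56988527-56989027) had a peak in TWEAK 1 only, with a rank of 6.62. Both called sites lay upstream. The site centred 4721 bp before the start (chr16:56984566-56985107) went from ranks of 55.3 and 46.5 to 69.4 and 68.4, a log2 change of 0.97 (SE 0.26, limma, adjusted p = 0.0186, and 0.0771 on ranks). Its neighbour, centred 3813 bp before the start (chr16:56985491-56985998), went from 72.2 and 79.2 to 84.1 and 82.0, a log2 change of 0.59 (SE 0.18, limma, adjusted p = 0.0377, and 0.203 on ranks). The first holds the AP-1 matches shown above and the second TGACTCA.

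The strongest gained site of the 9 genes lay in an NLRC5 intron. Its ranks were 78.7 and 77.9, with a pileup of 64 in TWEAK 1 and 52 in TWEAK 2, or 24.3 and 28.2 times background. No untreated peak lay within 13011 bp. Of all 10804 gained sites, 434 (4.02%) had both ranks above 70, a threshold chosen after the values were seen. Closer to the start, 10012 bp into the gene (chr16:56999308-56999831), a gained site had ranks of 51.8 and 57.3, 4531 bp from the nearest untreated peak. Its sequence, shown above, holds NF-κB matches and an ISRE-like match. The other gained sites were a weak intronic site centred 23891 bp after the start (chr16:57013198-57013698), with ranks of 6.62 and 17.9, and a site in an exon of CETP, 18254 bp upstream (chr16:56971041-56971565), with ranks of 50.3 and 47.4. The lost site, centred 40175 bp upstream (chr16:56949121-56949644), had ranks of 30.3 and 22.8, with a TWEAK peak 519 bp away. Nearby, the site centred 42712 bp upstream (chr16:56946369-56947321) went from 51.7 and 63.0 to 32.5 and 34.6. Its log2 change of −0.71 (SE 0.28) did not pass the test (limma, adjusted p = 0.116). With 28 annotated starts, NLRC5 had the widest window of the 9 genes, and 18 of its 54 sites had a peak in 1 library.

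**Figure D5:**
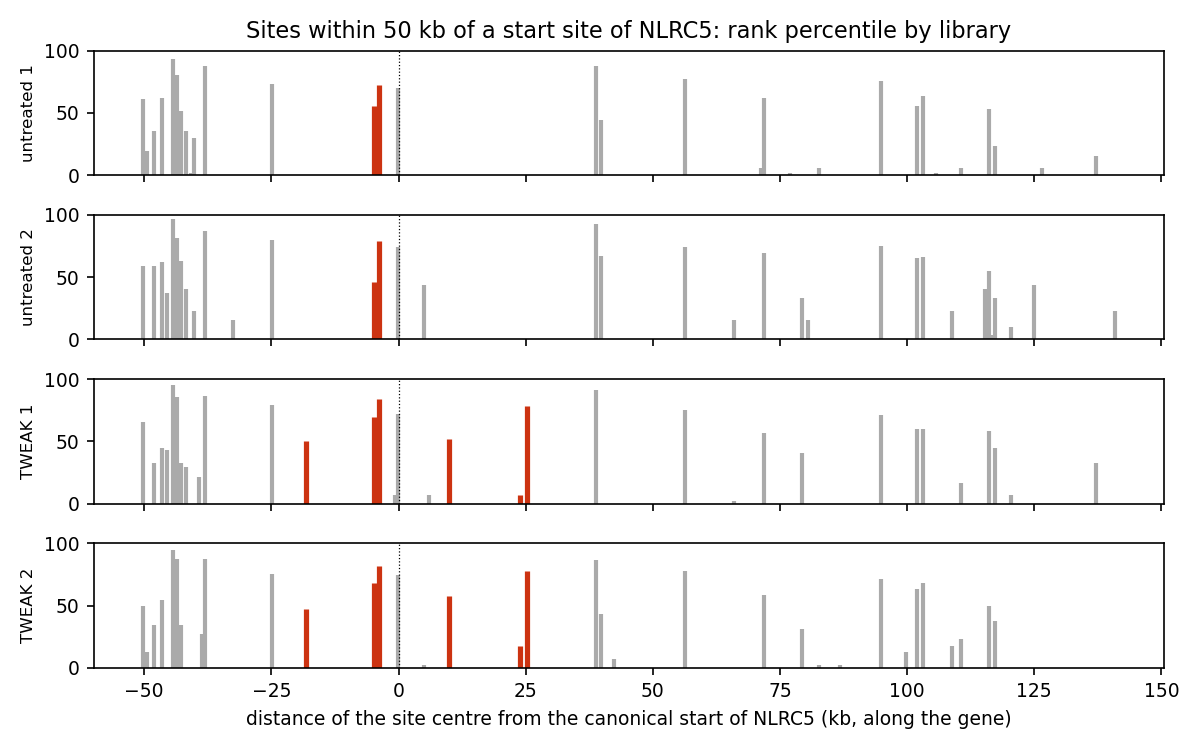
Rank percentile of the sites within 50 kb of an NLRC5 start site in each library, by the distance of the site centre from the canonical start (kb, along the gene). Red bars are the 4 gained and 2 called sites, which lie on both sides of the promoter, and the dotted line is the start.

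The letters of the motifs were counted within 201 bases around all sites. The NF-κB motif was found in 20 of the 153 member sites (13.1%), against 6.21% of all sites. It was in 3 of the 7 gained sites, against 20.0% of all gained sites, and in 3 of the 8 called higher, against 21.6% of all sites called higher. TTTCNNTT was in 41 member sites (26.8%, against 18.1%) and TGANTCA in 22 (14.4%, against 12.2%), with 4 of the 8 called higher, against 32.6% of all sites called higher. TTCNNNGAA was in 6 (3.92%, against 5.79%), TGACG in 16 (10.5%, against 9.19%) and CCAAT in 46 (30.1%, against 23.7%). Of the 8 called higher, 3 held TTTCNNTT, 1 TTCNNNGAA, 0 TGACG and 1 CCAAT, against 18.8%, 6.70%, 9.05% and 25.3% of all sites called higher. Of the 7 gained sites, 4 held TTTCNNTT, 3 TGANTCA, 0 TTCNNNGAA, 1 TGACG and 2 CCAAT. The shares of all gained sites were 20.9%, 22.3%, 6.94%, 7.84% and 25.8%. Sites of a locus share sequence and are not independent, and no test was made.

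For the rest of the pathway, 18 other genes of peptide transport, loading and trimming and of the class I transcription factors were examined at 480 sites, of which 458 belonged to none of the 9 genes. At these 458 sites, 16 were gained (3.49%) and 15 lost (3.28%), and 8 (3.96%) of the 202 shared sites were called higher and 6 (2.97%) lower. Neither share exceeded that of all shared sites (5.97% and 4.38%). The 8 higher calls lay near TAPBP, PSMB10, RFX5, IRF2, ERAP1 and CIITA. The 6 lower calls lay near IRF1 (2 sites, log2 changes −0.65 and −1.09), CIITA (2 sites), TAPBPL (−0.64) and PSMB10 (−0.95, limma, adjusted p = 0.0226), of which IRF1 and TAPBPL were named after their values were seen. At promoters, TAPBP (tapasin, which links class I to the transporter) rose from ranks of 87.8 and 89.1 to 93.5 and 92.2, a log2 change of 0.51 (SE 0.13, limma, adjusted p = 0.0129). PSMB10, the remaining immunoproteasome catalytic subunit, rose from 57.5 and 61.8 to 75.0 and 67.6, a log2 change of 0.75 (SE 0.23, limma, adjusted p = 0.0417). Each of the 27 genes was counted by the site nearest to its canonical start. Of them, 23 had a peak there in all 4 libraries and could be tested. TAPBP and PSMB10 were the 2 called (8.70%, against 10.3% of all shared sites called in either direction). Further sites within 1 kb, such as the called B2M site and the PSMB8 site at its second start, are not counted here. The 4 not tested were HLA-B, HLA-C, PSMB8 and PSME2. CIITA, the class II counterpart of NLRC5, had a promoter with overlapping ranks of 61.1 and 67.7 untreated and 71.2 and 57.3 with TWEAK. Of its 47 sites within 50 kb, 5 were gained, 1 was lost, 2 were called higher and 2 called lower. RFX5, a subunit of the factor that binds the X box, had a promoter above rank 99 in all 4 libraries, and both of its higher calls lay away from it.

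Scale bears on these counts. Without quantile normalisation, the median of all shared sites moved from −0.03 to 0.14 on the log2 scale, and 87.6% of calls in the genome were higher, against 57.7% in the quantile-normalised fit, 39.7% with median centring and 47.2% on ranks. Relative to the median of all shared sites, the median of the member sites lay 0.07 above it in the quantile-normalised fit, 0.10 above it without quantile normalisation, 0.02 above it within 100 kb and 0.16 above it within 25 kb.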

How the data were processed

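Sample titles gave the groups and replicate numbers, and the methods describe the replicates as biological. The authors trimmed reads with Trimmomatic, mapped them to hg38 with Bowtie2, removed mitochondrial and duplicate reads (Bamtools, Picard) and called peaks per library with MACS2. Versions, peak settings and a shift for the transposase are not given in the sources used here. The deposited value, unnamed in the lists, was read from the values as the −log10 of an uncorrected p-value, and it equalled a Poisson tail of a whole-number pileup to within 0.00577. Pileup, rank, merged sites and distances were computed with Python 3.11.15, pandas 2.3.3 and scipy 1.17.1. Shared sites were tested with limma 3.58.1 (R 4.3.3, trend, Benjamini-Hochberg), checked on simulated data. DiffBind, used by the study, needs reads and was not run. Promoters are within 1 kb of a GENCODE v44 start. The canonical promoter site of a gene is, of these, the site nearest to its canonical start. Sequences were read with samtools 1.23.1 and from RefSeq promoters, which matched 7 of the 9 genes and equalled the genome in 9 of 9 entries. The sequence of 1 site is not reported here.

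The genes, lists and tests were chosen with earlier results of these data known. Named were the sites within 1 kb of a canonical start and all gained, lost and called sites of the 9 genes, the 3 largest rises and falls in mean rank among sites with ranks apart, and at most 6 other genes with a gained, lost or called site, taken as those with a higher call. Distances of 25 and 100 kb, 250 bp overlap, stricter peak thresholds (value of 5, pileup 5 times background), neighbouring peaks within 500 bp, other scales, a replicate block and left-out libraries were the alternatives.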

Additional observations from a re-analysis of the deposited data

How the results depend on the processing

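The 9 called sites kept their direction in the 6 alternative fits that used all libraries, and remained called with the replicate block, 250 bp overlap, a deposited value of at least 5 and no further normalisation. On the rank scale 5 of them, and with median centring 2, missed the threshold. The count called higher was 8. It was 6 with median centring (8.0%, against 5.86% of all shared sites), 6 within 25 kb and 3 on the rank scale. With 250 bp overlap, a deposited value of at least 5, no further normalisation or the replicate block it was 9. The count called lower was 1, and it was 0 within 25 kb, 5 within 100 kb (3.82%, against 4.38% of all sites) and 3 with median centring (4.0%, against 8.89%). The median change of 0.04 was 0.24 without further normalisation, 0.13 within 25 kb, −0.01 within 100 kb and with median centring, and −0.06 on the logit scale of ranks. Lost sites numbered 0 of 88 within 25 kb and 8 of 260 (3.08%) within 100 kb, against 3.8% of all sites, and sites with both TWEAK ranks lower 7 (17.1%) and 42 (32.1%), against 35.4% of all. Leaving out 1 library gave 12 to 13 gained (8.33% to 9.29%, against 6.53% to 11.6% of all sites) and 5 to 16 lost sites (3.38% to 11.1%, against 6.58% to 16.0%), since 1 library of a group then defines presence. It gave 18 to 30 sites with ranks higher (23.4% to 37.5%, against 20.2% to 31.4%) and 26 to 41 with ranks lower (32.5% to 53.2%, against 42.0% to 57.6%), and 0 calls in either direction, with a lowest adjusted p of 0.335 to 0.396. Changes at the member sites nearest to a canonical start, none called, had no stable sign on the log2 scale outside HLA-E (0.03 to 0.28). They ran from −0.17 to 0.09 at B2M, −0.11 to 0.40 at HLA-F, −0.03 to 0.36 at NLRC5 and −0.01 to 0.24 at TAP1 and PSMB9. The further B2M site 893 bp from the start, which was called higher, is not among these. The replicate block gave 9 higher (12.0%, against 7.07% of all shared sites) and 1 lower member calls (1.33%, against 5.79%). Deviations of same-numbered libraries correlated at 0.03, a single value since both pairs mirror each other with 2 libraries a group, and although the methods describe cell line experiments as repeated on different days, they tie no replicate number to a day. Peak lists limit these results to sites past the caller's threshold: a missing peak is no measure of closed chromatin.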
